A study of Mus musculus with 36 samples.

Results

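Protein arginine methyltransferases were followed at the RNA level while B cells were converted into macrophages. The 7 genes were chosen by name: Carm1, the enzyme the study is about, and Prmt1, Prmt2, Prmt3, Prmt5, Prmt6 and Prmt7 of the same family. All 7 were present among the 40354 genes of the count tables and among the 19067 genes of the log2 tables, and all 7 passed the low-count filter of every fit. The cells were B cells from the bone marrow of C57BL/6J mice, infected with a retrovirus that carries C/EBPα fused to the estrogen receptor, with human CD4 as a marker. The fusion carried wild-type C/EBPα (WT), C/EBPα with arginine 35 replaced by alanine (R35A), or C/EBPα with the same arginine replaced by lysine (R35K). Infected cells were purified by human CD4 and grown with IL-7 on growth-arrested mouse embryonic fibroblast feeders, and 17β-estradiol (E2) then moved the factor into the nucleus to start B cell to macrophage transdifferentiation (BMT), in medium that also held IL-3, FLT-3, CSF-1 and SCF. Cells were harvested before induction (0 hr post induction, hpi) and at 5 times after it, namely 1 hpi, 3 hpi, 6 hpi, 18 hpi and lastly 120 hpi, with 2 replicates in each of the 18 groups of construct and timepoint (36 libraries). The labels name the 120 hpi cells macrophages and all others B cells. Every group, 0 hpi included, carried a retroviral C/EBPα fusion, the mice's ages are not in the labels, and no group lacked an enzyme, so these are RNA levels of the enzymes and not of their activity.

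Protein arginine methyltransferases move a methyl group from S-adenosylmethionine onto arginine side chains of histones, transcription factors, splicing factors and other RNA-binding proteins. Type I enzymes (Prmt1, Prmt2, Prmt3, Carm1 and Prmt6) leave asymmetric dimethylarginine, the type II enzyme Prmt5 leaves symmetric dimethylarginine, and the type III enzyme Prmt7 leaves monomethylarginine. In blood cells Prmt1 and Prmt5 are known for their role in proliferating precursors, B cell precursors included, and Carm1 is known as a coactivator of transcription.

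The 7 genes lie on separate loci of the mouse genome (mm10, GENCODE vM21), all protein coding. Carm1 spans chr9:21546894-21592623 on the plus strand, Prmt1 chr7:44975989-44986568 on the minus strand, Prmt2 chr10:76207222-76237865 on the minus strand and Prmt3 chr7:49778346-49858265 on the plus strand. Prmt5 spans chr14:54507187-54517525 and Prmt6 chr3:110246109-110250998, both on the minus strand, and Prmt7 chr8:106210936-106252794 on the plus strand. A strand setting for the counting is not given in the sources used here, and 21.1% of the exon bases of Carm1 (1025 bases) are shared with Yipf2 on the opposite strand, as are 23.4% of those of Prmt6 (984 bases) with the antisense gene C130013H08Rik. Over the 36 libraries Yipf2 stayed between 8.75 and 13.6 CPM (each gene's share of all counts in a library, after TMM scaling and put on the usual CPM scale) and C130013H08Rik between 0.770 and 2.54 CPM.

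Upstream sequence of Prmt1, Prmt3 and Prmt2 is shown because Prmt1 (in all 3 constructs) and Prmt3 (in wild-type and R35K cells) fell by 120 hpi and hold the E-box letters CACGTG that Myc and its relatives bind, while Prmt2 is the member that rose. Prmt5, Prmt6 and Prmt7, which also fell in 1 or more constructs, have no CACGTG in this window. Each runs 5′ to 3′ along the gene's strand from 250 bases before the RefSeq start (GRCm38.p6) to the base before the first annotated exon, with the matched letters in capitals.
Prmt1, chr7:44986569-44986670: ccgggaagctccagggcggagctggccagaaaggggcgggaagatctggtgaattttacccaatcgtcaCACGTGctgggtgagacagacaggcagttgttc
Prmt3, chr7:49778108-49778345: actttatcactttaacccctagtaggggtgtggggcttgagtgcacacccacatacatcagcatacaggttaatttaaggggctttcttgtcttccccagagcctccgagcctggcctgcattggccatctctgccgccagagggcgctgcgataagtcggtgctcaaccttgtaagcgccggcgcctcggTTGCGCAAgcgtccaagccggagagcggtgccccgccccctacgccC
Prmt3 around the start, chr7:49778328-49778357: gccccgccccctacgccCACGTGacccgga
Prmt2, chr10:76237866-76238115: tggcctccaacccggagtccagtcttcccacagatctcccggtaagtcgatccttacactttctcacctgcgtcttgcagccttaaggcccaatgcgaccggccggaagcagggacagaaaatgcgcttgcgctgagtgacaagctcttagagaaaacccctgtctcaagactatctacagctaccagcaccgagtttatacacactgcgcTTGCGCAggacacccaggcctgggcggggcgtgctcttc

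CACGTG begins at −181 in Prmt1 and at −13 in Prmt3, counted from the start, and 7.15% of the 32851 RefSeq promoter windows of the same length hold it on either strand. The C/EBP palindrome TTGCGCAA begins at −59 in Prmt3 and is in 0.183% of the windows. The shorter letters TTGCGCA, chosen after the sequences had been seen, begin at −39 and at 23 in Prmt2, and 2.02% of the windows hold them at least once and 0.268% at 2 or more places, where a TTGCGCAA palindrome counts as 2 because both strands were read. The PU.1 letters GAGGAAGT, in 3.2% of the windows, were in none of the 6 member windows. No window was found for Carm1. A match is a description of letters and says nothing of binding in these cells.

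Depth was similar in all libraries, with 13044456 to 23131776 counts on genes (median 15471229.5). In uninduced cells the B cell marker list summed to 3390 to 3720 CPM and the macrophage list to 102 to 108 CPM, and at 120 hpi to 63.7 to 138 CPM and 20300 to 32800 CPM, so the labels of both ends held. A list of 6 feeder fibroblast markers summed to 866 to 950 CPM at 0 hpi, 1730 to 2110 CPM at 1 hpi and 122 to 450 CPM at 120 hpi. Transcripts typical of feeders were thus counted although feeders had been depleted before RNA extraction, and their part in the results below was not tested. Granulocyte markers fell from 37.6 to 48.3 CPM at 0 hpi to 1.91 to 3.85 CPM at 1 hpi, and T cell markers had too few counts to test. In bulk RNA, fewer cells of a type and less RNA per cell cannot be told apart. No uninduced group was harvested at the later times. A change from 0 hpi shared by all constructs thus cannot be told apart from effects of medium, handling or cell mix.

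Before induction no difference between constructs passed the test. For R35A against wild-type 0 members did, the nearest to the threshold being Carm1 with a log2 difference of −0.15 (SE 0.061, adjusted p = 0.417), and for R35K against wild-type 0 as well. These are quasi-likelihood F tests in edgeR over all genes, adjusted with Benjamini-Hochberg, and 0% of all genes passed an adjusted p of 0.05 with a change of 1.5-fold at 0 hpi for either mutant. At unadjusted p with the same fold there were 261 and 220 genes, and DESeq2 called 1 and 0. Below, rose, fell and changed mean that both thresholds were passed, and a value that passed the adjusted p alone is described as under 1.5-fold.

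**Figure D1:**
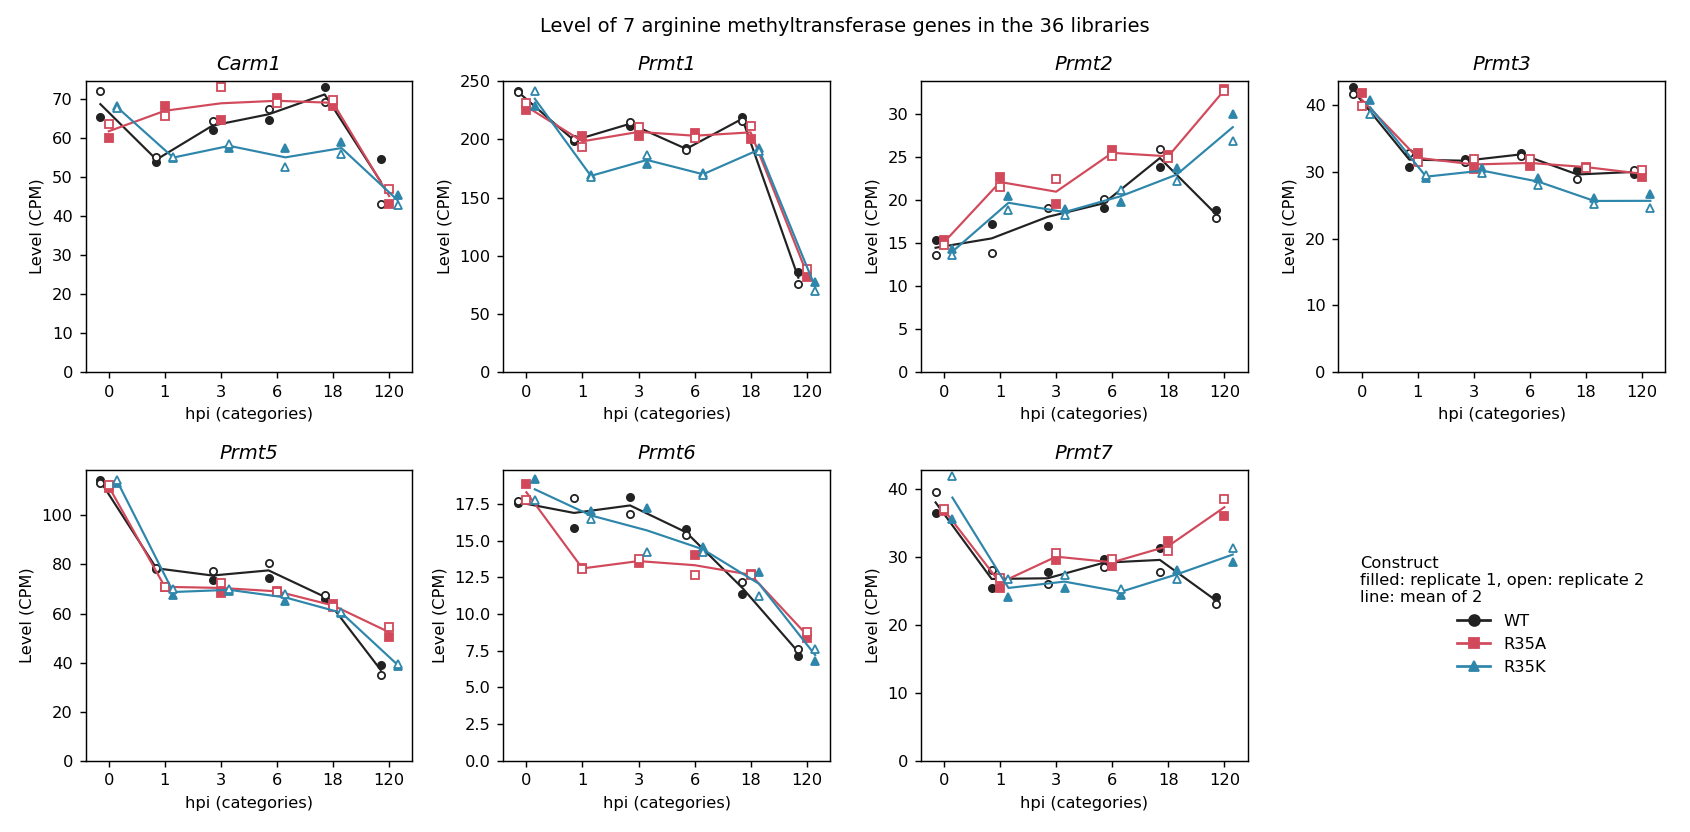
Level of each gene in CPM (vertical axis, linear, from 0) at each timepoint from 0 to 120 hpi, drawn as evenly spaced categories. Filled and open symbols are replicates 1 and 2, lines join the mean of 2, and black, red and blue are WT, R35A and R35K. Carm1, Prmt1, Prmt5 and Prmt6 had their own lowest mean at 120 hpi in each construct, Prmt2 ended high in R35A (32.9 and 32.8 CPM) and R35K but not in wild-type cells (18.8 and 18.0 CPM), and Prmt7 ended at 36.1 and 38.5 CPM in R35A, near its start.

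Carm1, also called Prmt4, had a modest dip that differed between constructs within 1 hr. In wild-type cells it stood at 65.5 and 72.0 CPM at 0 hpi, 53.9 and 55.1 CPM at 1 hpi, 62.0 and 64.5 CPM at 3 hpi, 64.8 and 67.5 CPM at 6 hpi, 73.2 and 69.3 CPM at 18 hpi, and 54.7 and 43.0 CPM at 120 hpi. Both wild-type libraries at 1 hpi were below those of every other wild-type time up to 18 hpi, and the 2 libraries at 120 hpi were far apart. In R35A cells the levels were 60.0 and 63.6 CPM at 0 hpi, 68.3 and 65.8 CPM at 1 hpi, 64.8 and 73.2 CPM at 3 hpi, 70.3 and 68.9 CPM at 6 hpi, 68.3 and 69.9 CPM at 18 hpi, and 43.3 and 47.1 CPM at 120 hpi. R35A libraries thus stood above their own starting level from 1 to 18 hpi and below it at 120 hpi. In R35K cells the levels were 68.2 and 67.7 CPM at 0 hpi, then 52.8 to 59.1 CPM in the 8 libraries from 1 to 18 hpi, with no overlap, and 45.4 and 42.9 CPM at 120 hpi.

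At 1 hpi the log2 change of Carm1 was −0.31 in wild-type cells (SE 0.063, adjusted p = 3.38e-05, 1.24-fold), 0.09 in R35A cells (SE 0.060, adjusted p = 0.176) and −0.36 in R35K cells (SE 0.054, adjusted p = 5.77e-07, 1.28-fold). The change in R35A cells differed from that in wild-type cells by 0.40 on the log2 scale at 1 hpi (SE 0.087, adjusted p = 0.000164, interaction term), by 0.25 at 3 hpi (adjusted p = 0.0227) and by 0.22 at 6 hpi (adjusted p = 0.0473). Part of each of these is the starting difference of −0.15, and the levels themselves differed at 1 hpi alone, by 0.26 (SE 0.061, adjusted p = 0.000389). All 3 interaction values are under 1.5-fold. Under the alternatives tried the 1 hpi value ranged from 0.34 to 0.47 and passed in 16 of 16 settings. The 3 hpi value passed in 12 of 16 and the 6 hpi value in 8 of 16. These settings, here and below, include calls at unadjusted p in the main fit, which repeat its adjusted p and so always pass.

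The change of Carm1 was lower in R35K than in R35A cells at 1 hpi by −0.42 (SE 0.086, adjusted p = 0.000138), at 3 hpi by −0.38 (adjusted p = 0.000815), at 6 hpi by −0.47 (SE 0.085, adjusted p = 1.6e-05) and at 18 hpi by −0.40 (adjusted p = 0.000413), all under 1.5-fold. Part of each of these is the lower start of R35A cells (60.0 and 63.6 CPM, beside 68.2 and 67.7 CPM in R35K cells). Against wild-type cells the R35K value was 0.03 at 1 hpi (SE 0.088, adjusted p = 0.859), −0.25 at 6 hpi (adjusted p = 0.0215, past the threshold in 10 of 15 settings) and −0.29 at 18 hpi (SE 0.086, adjusted p = 0.00582, 14 of 15). At 6 hpi the R35A value (0.22) and the R35K value (−0.25) thus lay on opposite sides of the wild-type, while at 1 hpi R35K cells had a value close to that of wild-type cells. Feeder markers at 1 hpi summed to 1910 and 1930 CPM in wild-type, 2100 and 2110 CPM in R35A and 1790 and 1730 CPM in R35K cells. At 6 hpi these sums were further apart, at 2270 and 2380 CPM, 1800 and 1840 CPM, and 1400 and 1380 CPM, in the same order. At 18 hpi they were 2350 and 2280 CPM, 1770 and 1760 CPM, and 1230 and 1250 CPM. Their part in these differences was not tested. R35K libraries came in tables of their own, so table and construct cannot be told apart in levels, while the changes are taken within a table. Yipf2, which shares exon bases with Carm1, did not pass the test in any of these contrasts at 1 hpi (0.20 for R35A minus wild-type, adjusted p = 0.367).

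By 120 hpi Carm1 fell in wild-type cells (log2 −0.61, SE 0.068, adjusted p = 1.79e-11, 1.53-fold) and in R35K cells (−0.72, SE 0.058, adjusted p = 2.1e-13, 1.65-fold), and passed the adjusted p under 1.5-fold in R35A cells (−0.57, SE 0.067, adjusted p = 7.43e-11, 1.49-fold). No difference between constructs passed the test at 120 hpi (adjusted p = 0.823 for R35A and 0.346 for R35K, each against wild-type). The wild-type value lies at the fold threshold and was −0.46 with DESeq2 size factors and −0.32 without replicate 2 at 120 hpi. CPM levels were scaled over 36 libraries and each fit scaled its own, so folds taken from the CPM differ from the fitted ones. Near 1.5-fold this can decide a call. The wild-type CPM means of Carm1, 68.75 at 0 hpi and 48.87 at 120 hpi, are less than 1.5-fold apart. Over the settings tried the R35K value lay between −0.73 and −0.54, so not always past 1.5-fold. Ordered by mean level, Carm1 was highest in wild-type cells at 18 hpi (71.3 CPM) and lowest in R35K cells at 120 hpi (44.1 CPM), and 15 of the 17 neighbours in the order of 18 groups overlapped in their replicates.

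**Figure D2:**
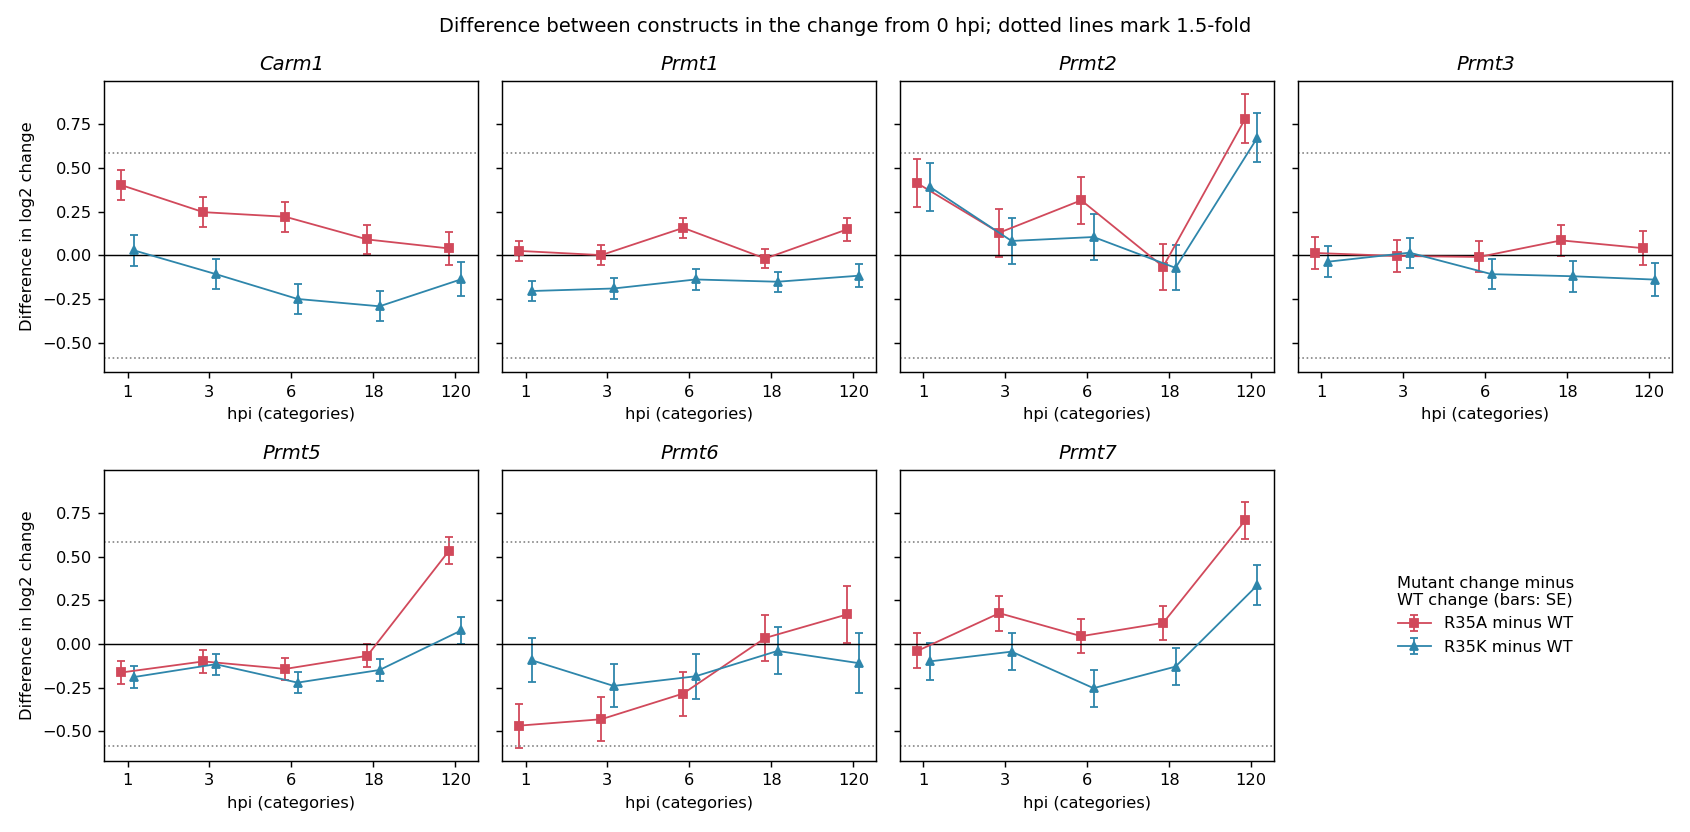
Difference between constructs in the log2 change from 0 hpi (vertical axis, shared by all panels) at 1 to 120 hpi, for R35A minus wild-type (red squares) and R35K minus wild-type (blue triangles), with bars for the SE and dotted lines at 1.5-fold. Carm1 is above 0 in R35A (0.22) and below 0 in R35K (−0.25) at 6 hpi, and only Prmt2 (0.78 and 0.68) and Prmt7 (0.71 in R35A) cross the dotted line, all at 120 hpi.

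Prmt1, the enzyme behind most asymmetric dimethylarginine in mammalian cells, fell the most in CPM. It went from 241 and 240 CPM at 0 hpi to 86.2 and 76.1 CPM at 120 hpi in wild-type cells, from 225 and 232 CPM to 81.6 and 88.4 CPM in R35A cells, and from 228 and 242 CPM to 77.0 and 69.3 CPM in R35K cells. The starting and final libraries are far apart in each construct. The fall was 3.24-fold in wild-type cells (SE of the log2 change 0.046, adjusted p = 8.95e-36), 2.92-fold in R35A cells (SE 0.044, adjusted p = 1.39e-34) and 3.44-fold in R35K cells (SE 0.047, adjusted p = 3.18e-27). Before that, from 1 to 18 hpi, Prmt1 stayed within 191 to 220 CPM in wild-type and 193 to 211 CPM in R35A cells, but at 168 to 193 CPM in R35K cells. Against wild-type, the R35K change was lower by −0.20 at 1 hpi (adjusted p = 0.00508, past the threshold in 14 of 15 settings) and −0.19 at 3 hpi (adjusted p = 0.01, 13 of 15). The change in R35K cells was lower than in R35A cells by −0.28 at 1 hpi (SE 0.058, adjusted p = 0.000231), −0.22 at 3 hpi (adjusted p = 0.00596), −0.30 at 6 hpi (SE 0.058, adjusted p = 6.66e-05) and −0.26 at 120 hpi (adjusted p = 0.00488), past the threshold in 15, 12, 15 and 11 of 15 settings. All of these differences are under 1.5-fold.

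Prmt2, a type I enzyme with weak activity of its own that acts as a coactivator of nuclear receptors, was the member that rose. In wild-type cells it went from 15.4 and 13.6 CPM at 0 hpi to 23.9 and 25.9 CPM at 18 hpi. At 120 hpi it was down to 18.8 and 18.0 CPM, with both libraries still above those of 0 hpi. In R35A cells it was already at 22.7 and 21.6 CPM at 1 hpi, from 15.4 and 14.8 CPM, and reached 25.9 and 25.2 CPM at 6 hpi and 32.9 and 32.8 CPM at 120 hpi. In R35K cells it went from 14.4 and 13.7 CPM to 20.5 and 18.9 CPM at 1 hpi, 23.7 and 22.3 CPM at 18 hpi and 30.1 and 27.0 CPM at 120 hpi. Both mutants had their highest libraries at 120 hpi, where the wild-type was below its level of 18 hpi, and their libraries at 120 hpi did not overlap with those of the wild-type.

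At 18 hpi Prmt2 rose in all 3 constructs, by 1.72-fold in wild-type (log2 0.78, SE 0.095, adjusted p = 2.89e-10), 1.64-fold in R35A and 1.59-fold in R35K cells. By 120 hpi it was 1.999-fold up in R35A cells (SE 0.091, adjusted p = 2.74e-14) and 1.89-fold up in R35K cells (SE 0.086, adjusted p = 1.07e-11), and the wild-type change was 0.22 (SE 0.107, adjusted p = 0.0591). The difference in change at 120 hpi was 0.78 for R35A (SE 0.141, adjusted p = 1.14e-05) and 0.68 for R35K (SE 0.139, adjusted p = 0.000118), each against wild-type, and −0.10 between the mutants (SE 0.128, adjusted p = 0.708). At 1 hpi it was 0.41 for R35A (SE 0.138, adjusted p = 0.0159) and 0.39 for R35K (SE 0.137, adjusted p = 0.0234), both under 1.5-fold. These early values passed in 12 of 16 and 9 of 15 settings, and leaving out 1 replicate moved them to between 0.26 and 0.57 and between 0.23 and 0.55. The feeder markers were also higher in the mutants at 120 hpi, at 433 and 450 CPM in R35A, 322 and 383 CPM in R35K and 122 and 144 CPM in wild-type cells, with 5 of the 6 genes higher in R35A than in wild-type cells, and their part in the result was not tested.

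Prmt3, a cytosolic enzyme that methylates a protein of the small ribosomal subunit, was lower from 1 hpi on, at first by less than 1.5-fold (log2 −0.38, −0.37 and −0.49 in wild-type, R35A and R35K cells). It went from 42.7 and 41.7 CPM to 30.8 and 32.9 CPM within 1 hr in wild-type cells, from 41.9 and 39.9 CPM to 32.8 and 31.5 CPM in R35A cells and from 40.7 and 38.7 CPM to 29.0 and 29.5 CPM in R35K cells. Most of the loss was therefore in place at 1 hpi in each construct, and the libraries at 120 hpi lay between 24.6 and 30.3 CPM. By 120 hpi it fell in wild-type (−0.62, SE 0.070, adjusted p = 2.39e-11) and R35K cells (−0.73, SE 0.070, adjusted p = 1.79e-11), and was just under 1.5-fold in R35A cells (−0.58, SE 0.067, adjusted p = 5.33e-11). Over the settings tried the value lay between −0.69 and −0.38 in wild-type and between −0.77 and −0.55 in R35K cells, so not always past 1.5-fold. No difference between constructs passed the test for Prmt3 at any time, the nearest being −0.22 between R35K and R35A cells at 18 hpi (SE 0.087, adjusted p = 0.0832).

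Prmt5, which makes symmetric dimethylarginine on spliceosomal Sm proteins together with Wdr77, was lower at 1 hpi and lower again at 120 hpi. Wild-type cells went from 115 and 113 CPM at 0 hpi to 78.1 and 78.7 CPM at 1 hpi, 65.96 and 67.7 CPM at 18 hpi and 39.0 and 34.98 CPM at 120 hpi. R35A cells went from 111 and 112 CPM to 70.9 and 70.9 CPM, 63.9 and 62.7 CPM and 50.4 and 54.4 CPM, and R35K cells from 113 and 115 CPM to 67.7 and 69.8 CPM, 60.1 and 60.5 CPM and 38.8 and 39.5 CPM. Mutant libraries were below the wild-type at 1 hpi, and R35A libraries were above both others at 120 hpi, without overlap.

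The change at 1 hpi was 1.60-fold in R35A (log2 −0.68, SE 0.045, adjusted p = 7.28e-19) and 1.72-fold in R35K cells (−0.78, SE 0.045, adjusted p = 8.28e-17), and under 1.5-fold in wild-type cells (−0.52, SE 0.046, adjusted p = 5.18e-14). By 120 hpi Prmt5 fell by 3.36-fold in wild-type, 2.32-fold in R35A and 3.12-fold in R35K cells. The smaller fall in R35A cells differed from the wild-type by 0.54 (SE 0.077, adjusted p = 1.21e-07) and the R35K value from that of R35A by −0.45 (SE 0.071, adjusted p = 5.78e-06), both under 1.5-fold. At 1 hpi the differences against wild-type were −0.16 for R35A (adjusted p = 0.0453), which passed in only 2 of 16 settings, and −0.19 for R35K (adjusted p = 0.0155), which passed in 11 of 15.

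Prmt6, a nuclear type I enzyme that acts on histone tails, fell by 120 hpi in all 3 constructs, and at 1 and 3 hpi was lower in R35A than in wild-type cells by less than 1.5-fold. In wild-type cells it stood at 17.6 and 17.7 CPM at 0 hpi, 15.8 and 17.9 CPM at 1 hpi, 11.4 and 12.2 CPM at 18 hpi and 7.16 and 7.65 CPM at 120 hpi. In R35A cells it went from 18.9 and 17.7 CPM to 13.16 and 13.03 CPM at 1 hpi and was at 12.7 and 12.6 CPM at 18 hpi and 8.36 and 8.80 CPM at 120 hpi. R35A libraries at 1 and 3 hpi were all below the wild-type libraries of those times, and at 18 hpi the 4 libraries of these constructs lay between 11.4 and 12.7 CPM. In R35K cells Prmt6 was at 17.0 and 16.4 CPM at 1 hpi, from 19.2 and 17.8 CPM, and at 6.77 and 7.64 CPM at 120 hpi. The difference in change between R35A and wild-type cells was −0.47 at 1 hpi (SE 0.126, adjusted p = 0.00245) and −0.43 at 3 hpi (SE 0.127, adjusted p = 0.00628), both under 1.5-fold and past the adjusted p in 15 of 16 settings each. At 120 hpi the fall was 2.60-fold in wild-type, 2.31-fold in R35A and 2.75-fold in R35K cells, with no difference between constructs that passed the test. The antisense gene C130013H08Rik had 12 to 41 counts per library, and its own difference at 1 hpi was −0.27 (SE 0.435, adjusted p = 0.683).

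Prmt7, the monomethylating enzyme, ended near its starting level in R35A cells. All constructs began alike, at 36.4 and 39.6 CPM in wild-type, 36.8 and 37.1 CPM in R35A and 35.6 and 41.9 CPM in R35K cells, and stood at 24.1 to 28.1 CPM in the 6 libraries of 1 hpi. At 120 hpi the levels were 24.1 and 23.1 CPM in wild-type, 36.1 and 38.5 CPM in R35A and 29.3 and 31.4 CPM in R35K cells. The 3 pairs of libraries at 120 hpi did not overlap. Prmt7 fell over BMT in wild-type cells (−0.81, SE 0.080, adjusted p = 3.2e-13), whereas the R35A change was −0.11 (SE 0.070, adjusted p = 0.16) and the R35K change −0.45 (SE 0.078, adjusted p = 3.52e-06, under 1.5-fold).

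The difference in change of Prmt7 at 120 hpi was 0.71 between R35A and wild-type cells (SE 0.107, adjusted p = 3.22e-07, 1.63-fold). It was 0.34 between R35K and wild-type (SE 0.114, adjusted p = 0.0217) and −0.37 between R35K and R35A (SE 0.106, adjusted p = 0.0154), both under 1.5-fold and past the adjusted p in 9 of 15 and 11 of 15 settings. At 1 hpi no difference between constructs passed the test for Prmt7 (−0.04, SE 0.101, adjusted p = 0.815, for R35A minus wild-type). Smpd3, which shares 4.03% of the exon bases of Prmt7 on the opposite strand, went the other way (−1.65 for R35A minus wild-type at 120 hpi, SE 0.392, adjusted p = 0.000679) at 15 to 65 counts per library.

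**Figure D3:**
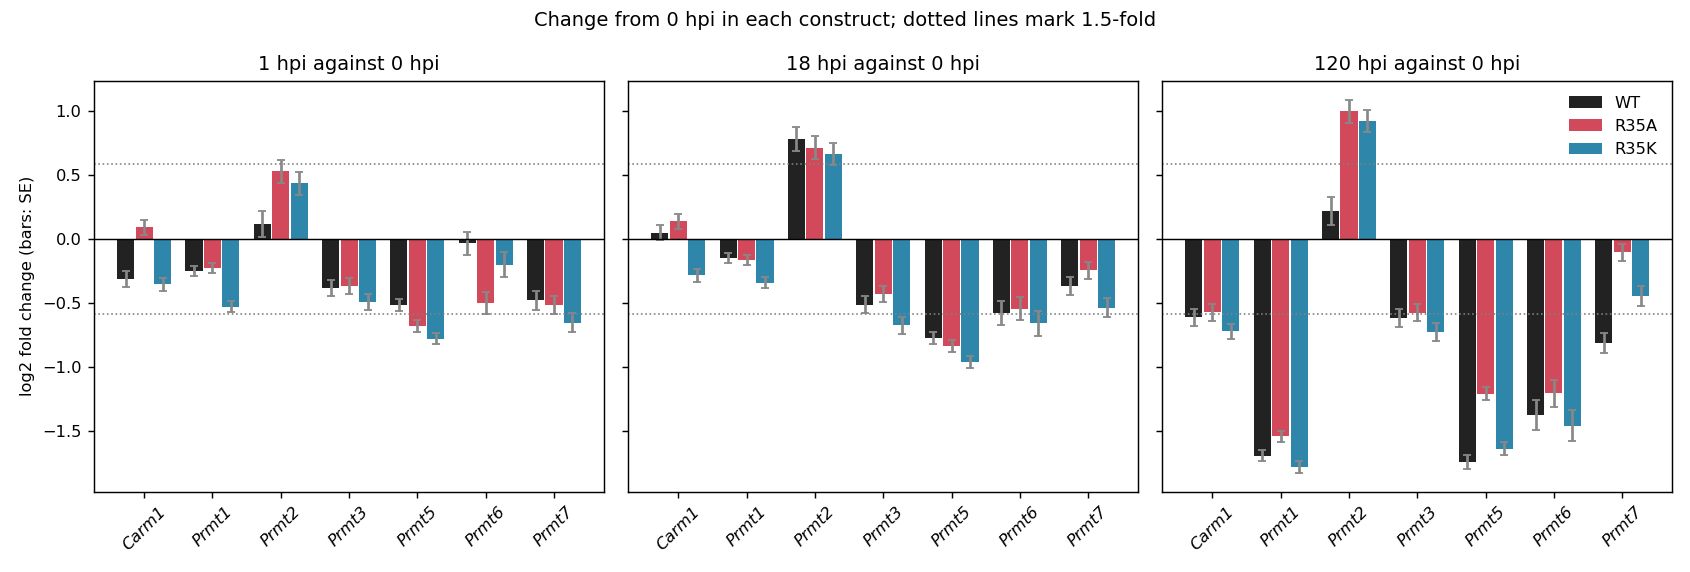
Log2 change from 0 hpi of the 7 genes at 1, 18 and 120 hpi (panels), in WT (black), R35A (red) and R35K (blue), with bars for the SE and dotted lines at 1.5-fold. Prmt2 is the gene above 0 in every panel and construct, and at 120 hpi Prmt1, Prmt5 and Prmt6 lie below −1.2 in all 3 constructs.

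Counted over the 7 genes, 0 changed at 1 hpi in wild-type cells, where 19.9% of all genes tested did, 1 (Prmt5) in R35A cells, where 37.3% did, and 2 (Prmt5 and Prmt7) in R35K cells, where 32.9% did. At 3 hpi there were 1 in wild-type (23.5% of all genes), 1 in R35A (36.8%) and 2 in R35K cells (32.7%), and at 6 hpi 0 in wild-type (29.8%), 2 in R35A (37.7%) and 2 in R35K cells (34.1%). At adjusted p alone, wild-type cells had 5 members at 1 hpi (51.3% of all genes) and 5 at 6 hpi (60.2%). At 18 hpi there were 2 in wild-type (47.1% of all genes), 2 in R35A (42.6%) and 4 in R35K cells (39%). By 120 hpi 6 members fell in wild-type cells, where 63.3% of all genes changed and 40.2% fell, 3 fell and 1 rose in R35A cells (63.1% changed and 39% fell), and 5 fell and 1 rose in R35K cells (63.8% and 38.5%). Carm1 and Prmt3 lie close to 1.5-fold, and over the settings tried these counts were 3 to 6 in wild-type and 4 to 6 in each mutant. The median log2 change of the members at 120 hpi was −0.81 in wild-type cells, beside −0.36 over all genes, −0.58 beside −0.31 in R35A cells and −0.73 beside −0.28 in R35K cells. From 18 to 120 hpi, 4 members fell in wild-type cells (60.5% of all genes changed), 3 in R35A (53.9%) and 3 in R35K cells (53.3%), Prmt1 and Prmt6 among them each time.

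In level, R35A against wild-type gave 0 members at 1 hpi (19.3% of all genes), 3 hpi (17%), 6 hpi (13.7%) and 18 hpi (10.1%). At 120 hpi there were 2, Prmt2 and Prmt7, against 18.8% of all genes. The differences in change gave Prmt2 and Prmt7 at 120 hpi for R35A (14.5% of all genes) and 0 members at 1 hpi (14%), 3 hpi (13%), 6 hpi (10.3%) and 18 hpi (8.36%). For R35K against wild-type they gave Prmt2 at 120 hpi (10.1%) and 0 at 1 hpi (11.9%), 3 hpi (10%), 6 hpi (12.2%) and 18 hpi (13.3%). Between R35K and R35A there were 0 at 1 hpi (5.83%), 3 hpi (3.02%), 6 hpi (5.89%), 18 hpi (3.44%) and 120 hpi (1.61%). At adjusted p alone there were 2 (21.6% of all genes), 2 (13.4%), 3 (21.1%), 1 (14.1%) and 3 (11%) at these times. Both mutants are set against the same wild-type libraries. With adjusted p alone, 4 members passed for R35A against wild-type at 1 hpi in the change from 0 hpi (Carm1 and Prmt2 upward, Prmt5 and Prmt6 downward), against 34% of all genes. Setting R35A cells at 1 hpi beside wild-type cells at 18 hpi, 0 members differed (10.5% of all genes did). By adjusted p alone Prmt1 (−0.15, adjusted p = 0.00182) and Prmt7 (−0.19, adjusted p = 0.0362) were lower in the R35A cells. The contrasts of each construct share their 0 hpi libraries, so they are not independent of each other.

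Levels of different genes were compared per kilobase of merged exon. On that scale Prmt1 made up 52.1% of the sum over the 7 genes in wild-type cells at 0 hpi, Prmt5 21.3%, Carm1 10.5%, Prmt3 5.21%, Prmt7 4.6%, Prmt2 3.17% and Prmt6 3.11%. By 120 hpi the sum had gone from 135 to 59.2 CPM per kb in wild-type, from 129 to 70.2 in R35A and from 133 to 59.7 in R35K cells. Prmt1 then held 40% in wild-type cells, Carm1 17% and Prmt5 15.8%. Carm1 and Prmt5 were nearly tied in wild-type replicate 2 (15.9% and 15.8%). In R35A cells at 120 hpi the shares were Prmt1 (35.4%), Prmt5 (18.9%), Prmt2 (13.9%) and Carm1 (13.3%), and Prmt7 reached 8.68%. With the longest transcript in place of merged exons, the wild-type level of Carm1 at 0 hpi was 19.2 instead of 14.2 CPM per kb and that of Prmt1 112 instead of 70.3, so the shares depend on the length used. These shares are of RNA and not of enzyme.

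**Figure D4:**
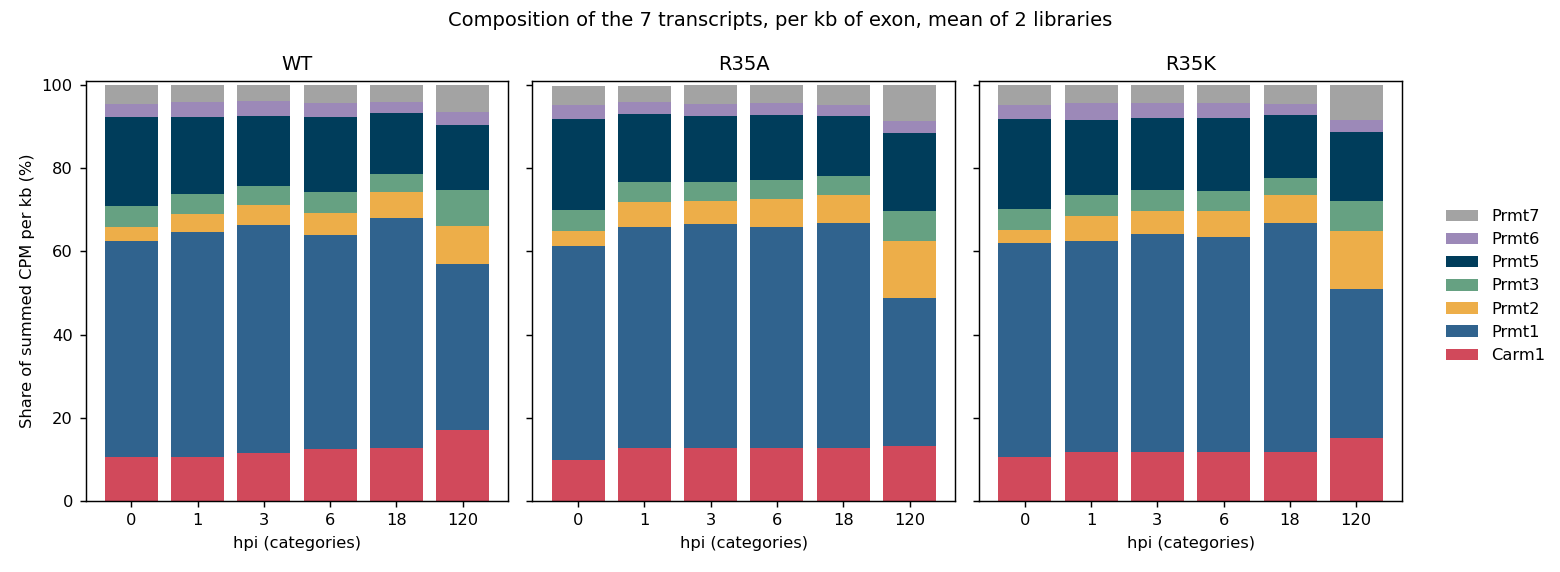
Share of each gene (vertical axis, percent) in the summed CPM per kb of merged exon of the 7 genes, mean of 2 libraries, for each timepoint (categories) in WT, R35A and R35K. Prmt1 (blue) is the largest part throughout. At 120 hpi the parts of Carm1 (red), Prmt2 (orange), Prmt3 (green) and Prmt7 (grey) are larger than at 0 hpi in all 3 constructs.

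As a description over the 18 group means, which share constructs and scaling, Prmt5 and Prmt6 had a Pearson correlation of 0.908 in log2(CPM + 1), Carm1 and Prmt1 0.881, and Prmt3 and Prmt5 0.832. Prmt2 ran against Prmt6 (−0.72) and Prmt3 (−0.72). Over the 15 groups up to 18 hpi, Carm1 and Prmt6 had −0.26, in place of 0.623 with 120 hpi included. Among 11115 genes with a mean of at least 5 CPM, the patterns most like Carm1 were those of Dctd (0.971), Prpsap1 (0.949), Nek8 (0.933), Palm (0.930) and Utp4 (0.924). The nearest to Prmt1 were Gars and Utp20 (both 0.988), to Prmt2 Scamp1 (0.972), to Prmt3 Nolc1 (0.957), to Prmt5 Scd1 (0.989) and to Prmt7 Lars (0.928).

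Of the remaining family genes, Prmt8, known from the brain, had at most 2 counts in each of the 36 libraries and was not tested. Prmt9, another symmetric methyltransferase, stood at 20.9 and 22.2 CPM at 0 hpi and 33.0 and 32.9 CPM at 120 hpi in wild-type cells (0.48, SE 0.087, under 1.5-fold). Ndufaf7, a mitochondrial arginine methyltransferase, rose in all 3 constructs, from 22.8 and 19.02 CPM to 50.0 and 46.6 CPM in wild-type cells (1.08, SE 0.086, 2.11-fold), and by 1.75-fold in R35A and 2.04-fold in R35K cells. These 2 family genes, outside the 7 described above, thus stood higher at the end.

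Partners of the enzymes moved in both directions: at 120 hpi 3 of 8 rose and 1 fell in wild-type, 2 rose and 2 fell in R35A, and 3 rose and 2 fell in R35K cells, where 63.3%, 63.1% and 63.8% of all genes changed. Their median log2 change was −0.14, 0.15 and 0.06, beside −0.36, −0.31 and −0.28 over all genes. Wdr77, the partner of Prmt5 in the methylosome, fell from 49.4 and 44.2 CPM to 22.3 and 22.6 CPM in wild-type cells (−1.19, SE 0.083, 2.28-fold), by 2.18-fold in R35A and 2.29-fold in R35K cells. Btg1, an antiproliferative protein that binds Prmt1, rose from 246 and 236 CPM to 1613 and 1568 CPM in wild-type cells (2.60, SE 0.036, 6.05-fold), 3.48-fold in R35A and 4.37-fold in R35K cells. Coprs, which links Prmt5 to chromatin, rose in all 3 constructs (1.53-fold, 2.04-fold and 2.02-fold in wild-type, R35A and R35K cells).

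The methyl donor cycle supplies S-adenosylmethionine and clears S-adenosylhomocysteine. At 120 hpi 4 of its 13 genes rose and 7 fell in wild-type cells, and 3 rose and 6 fell in each mutant. Of all genes, 63.3% changed and 40.2% fell in wild-type, 63.1% and 39% in R35A, and 63.8% and 38.5% in R35K cells. The median log2 change of the list was −0.70, −0.13 and −0.31 in wild-type, R35A and R35K cells, beside −0.36, −0.31 and −0.28 over all genes. Ahcy, the hydrolase of S-adenosylhomocysteine, fell from 17.6 and 18.23 CPM to 4.78 and 3.73 CPM in wild-type cells (−2.19, SE 0.136, 4.57-fold), 5.41-fold in R35A and 6.02-fold in R35K cells. Ahcyl2, a relative of Ahcy, rose from 28.9 and 29.8 CPM to 201 and 212 CPM (2.69, SE 0.052, 6.44-fold), 5.44-fold in R35A and 5.23-fold in R35K cells. The folate enzymes Shmt1, Shmt2 and Mthfd1 fell in all 3 constructs (2.46-fold to 5.67-fold), and the methionine synthase Mtr rose in all 3 (1.91-fold to 2.20-fold).

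Among 6 genes of methylarginine turnover and opposing enzymes, 5 were tested. Ddah1, which degrades free methylarginines, fell from 70.4 and 72.6 CPM to 0.354 and 0.860 CPM in wild-type cells (4 and 9 counts), and ended at 4.44 and 5.08 CPM in R35A and 3.26 and 3.82 CPM in R35K cells. At 1 hpi Ddah1 stood at 140 and 139 CPM in R35A cells, beside 80.0 and 75.8 CPM at 0 hpi, with the feeder markers also higher, a part that was not tested. In R35K cells at 1 hpi Ddah1 was at 73.9 and 69.6 CPM, from 76.5 and 77.3 CPM. The feeder markers went from 878 and 927 CPM to 1790 and 1730 CPM there, and their part was again not tested. Ddah2 fell as well, by 7.61-fold in wild-type cells. Padi4, which turns arginine into citrulline, rose from 7 counts in each wild-type library at 0 hpi to 65 and 77 counts at 120 hpi (12.1-fold), by 13.7-fold in R35A and 6.08-fold in R35K cells. Padi2, of the same family, rose by 9.61-fold, 2.76-fold and 4.76-fold in wild-type, R35A and R35K cells.

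Known substrates went both ways. Of 9 substrates of Carm1, 1 rose and 3 fell in wild-type cells at 120 hpi, and 1 rose and 4 fell in each mutant. Over all genes 63.3%, 63.1% and 63.8% changed in wild-type, R35A and R35K cells, and 40.2%, 39% and 38.5% fell. The median log2 change of the substrates was −0.42, −0.46 and −0.49, beside −0.36, −0.31 and −0.28 over all genes. Smarcc1, a subunit of the BAF remodeler, fell from 285 and 281 CPM to 103 and 104 CPM in wild-type cells (−1.58, SE 0.039, 3.00-fold), 3.1-fold in R35A and 3.33-fold in R35K cells. Ncoa3, a nuclear receptor coactivator, rose from 82.6 and 82.9 CPM to 244 and 228 CPM (1.38, SE 0.043, 2.61-fold), 2.47-fold in R35A and 2.57-fold in R35K cells. Of the 3 Sm protein genes methylated by Prmt5, 2 fell in wild-type cells (40.2% of all genes did) and 3 in each mutant (39% in R35A and 38.5% in R35K), Snrpd1 by 2.10-fold, 2.09-fold and 2.49-fold in wild-type, R35A and R35K cells.

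RNA-binding proteins that carry methylarginine are listed next. At 1 hpi 2 of 10 fell in wild-type, 8 in R35A and 9 in R35K cells, and 0 rose. Of all genes, 19.9%, 37.3% and 32.9% changed in either direction at that time in wild-type, R35A and R35K cells. The median log2 changes of the list were −0.53, −0.74 and −0.74, beside −0.01, −0.01 and −0.04 over all genes. At 120 hpi 7 of 10 fell in wild-type cells and 10 in each mutant, where 40.2%, 39% and 38.5% of all genes fell in wild-type, R35A and R35K cells. Ncl, the nucleolar protein nucleolin, went from 1810 and 1859 CPM at 0 hpi to 1144 and 1143 CPM at 1 hpi and 636 and 640 CPM at 120 hpi in wild-type cells (−1.65 at 120 hpi, SE 0.030, 3.14-fold), and fell by 3.13-fold in R35A and 3.32-fold in R35K cells. The list's changes between constructs were not tested as a set.

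Spi1, the gene of PU.1, the partner of C/EBPα, rose from 32.9 and 33.2 CPM to 415 and 390 CPM at 120 hpi in wild-type cells (11.2-fold), 11.3-fold in R35A and 10.4-fold in R35K cells. At 1 hpi it stood at 75.9 and 72.0 CPM in wild-type, 94.3 and 95.6 CPM in R35A and 158 and 151 CPM in R35K cells. Reads assigned to Cebpa, the substrate itself, rose from 43.0 and 38.5 CPM to 108 and 100.5 CPM in wild-type cells by 120 hpi (2.34-fold), 3.41-fold in R35A and 3.33-fold in R35K cells. Counts do not separate reads of the endogenous gene from reads of a retroviral fusion.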

How the data were processed

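RNA-seq of 36 libraries was analysed, 2 per construct and timepoint. According to the study's methods, the authors made stranded libraries from polyadenylated RNA, aligned reads to mm10 with STAR 2.5.0a, counted them per gene with STAR and normalized with DESeq2 1.14.1. The annotation release and strand column are not given in the sources used here. The deposited count tables hold raw counts. The deposited log2 tables hold the log2 of counts divided by DESeq2 size factors plus 1, recovered here for 100% of values within 1e-06, and served as a check of levels. R35K has tables of its own.

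The 24 wild-type and R35A libraries (16988 genes) and the 12 R35K libraries (16434) were fitted in edgeR 4.0.16 (R 4.3.3, limma 3.58.1) with filterByExpr, TMM and quasi-likelihood F tests, and contrasts with R35K in 1 fit of 36 libraries (17277). Calls needed a 1.5-fold change and p no higher than 0.05 after Benjamini-Hochberg adjustment. Levels are CPM on TMM-scaled library sizes, with a pseudocount of 1 in log2 correlations alone, and per kb of GENCODE vM21 exon where genes are compared (96.94% of symbols matched). The edgeR and DESeq2 tests were tried on simulated counts for R35A at 1 hpi against 0 hpi, in the fit of wild-type and R35A libraries. The other contrasts and fits were not. P-values rest on the spread between the 2 replicates of a group, pooled over all groups of a fit and shared in part between genes. The methods call the replicates biological. Within single groups the variance between the 2 replicates was 1.07 to 2 times that of counting noise, and no 2 libraries were identical. This ratio of variances was highest at 120 hpi, at 1.68, 1.89 and 2 in wild-type, R35A and R35K cells.

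Members and lists were chosen with earlier results of these data known. Named list genes are the strongest riser and faller of each list at 120 hpi in wild-type cells among those called in the same direction in all 3 constructs, with Smarcc1, Wdr77, Cebpa and Spi1 always named. Genes of like pattern are the 5 nearest by correlation for Carm1 and up to 2 for others, with some genes not reported here. Others (Prmt8, Prmt9, Coprs, Shmt1, Shmt2, Mthfd1, Mtr, Ddah2, Padi2, Yipf2, C130013H08Rik, Smpd3) were named after their values were seen. Alternatives were DESeq2 1.42.0, its size factors in edgeR, no filter, a filter of 10 counts, other sets of libraries in the fit, a replicate block, and leaving out each replicate. Calls at unadjusted p in the main fit were a further alternative. That alternative repeats the main value and its adjusted p, so it always passes in the counts of settings past the adjusted p. Replicate numbers did not pair the samples. Upstream sequence is from RefSeq (GRCm38.p6), for 6 of 7 members.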

Additional observations from a re-analysis of the deposited data

Results flagged for a closer look

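In 3 cases the change of a member between 0 and 120 hpi differed between constructs past both thresholds of the interaction test (edgeR, Benjamini-Hochberg adjusted over all genes). Prmt2 changed by 0.78 more in R35A than in wild-type cells on the log2 scale (SE 0.141, adjusted p = 1.14e-05), with both R35A libraries above both wild-type libraries at 120 hpi, and the value lay between 0.68 and 0.88 over 16 settings, past the adjusted p in 16 of 16. Prmt2 changed by 0.68 more in R35K than in wild-type cells (SE 0.139, adjusted p = 0.000118), between 0.59 and 0.76 over 15 settings, past the adjusted p in 15 of 15. Prmt7 changed by 0.71 more in R35A than in wild-type cells (SE 0.107, adjusted p = 3.22e-07), between 0.64 and 0.76 over 16 settings, past the adjusted p in 16 of 16.

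At 120 hpi the summed feeder fibroblast markers moved with these results, at 122 to 144 CPM in wild-type, 433 to 450 CPM in R35A and 322 to 383 CPM in R35K cells, of 6 genes of which 1 was at or under 3 counts in each group. Their part in the results was not tested. At 18 hpi, where the same markers were higher in wild-type (2280 to 2350 CPM) than in R35A cells (1760 to 1770 CPM), the difference in change was −0.06 for Prmt2 (adjusted p = 0.807) and 0.12 for Prmt7 (adjusted p = 0.445).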

How the results depend on the processing

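Members past the adjusted p in the main fit gave 2075 values under the alternatives, over 50 comparisons. Of these, 2009 kept their direction and their call by both thresholds, 48 lost the call, 18 gained it and 0 reversed. A value under 1.5-fold that lost the adjusted p counts here as kept. Counts of changed members that are small and move with members near 1.5-fold. For wild-type at 3 hpi the count of 1 became 0 with DESeq2 size factors, the DESeq2 Wald test and only the groups compared in the fit, and 0 to 1 without 1 replicate. For wild-type at 6 hpi it was 0 to 1 without 1 replicate, main value 0. For wild-type at 120 hpi the count of 6 became 3 with only the groups compared, 4 with DESeq2 size factors, the Wald test, the filter of 10 counts and all 36 libraries in 1 fit, and 4 to 6 without 1 replicate (4 without wild-type replicate 2 at 120 hpi). For R35A at 120 hpi the count of 4 became 6 with no filter and 4 to 5 without 1 replicate, and for R35K the 6 became 4 with only the groups compared. For R35A at 1 hpi the count of 1 became 2 with DESeq2 size factors and with the Wald test, and 1 to 2 without 1 replicate. For R35K at 1 hpi the count of 2 became 1 with DESeq2 size factors and with the Wald test, and 1 to 2 without 1 replicate. For R35K at 3 hpi the count of 2 became 1 with DESeq2 size factors, the Wald test, no filter, all 36 libraries in 1 fit and only the groups compared, and 1 to 2 without 1 replicate, as at 6 hpi. R35A against wild-type at 1 hpi was 0 to 1 and R35A from 18 to 120 hpi 1 to 3 without 1 replicate, the 1 being without R35A replicate 1 at 120 hpi. The wild-type change of Carm1 by 120 hpi lay between −0.69 and −0.32, past the adjusted p in 12 of 12 settings but not always past 1.5-fold.

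DESeq2 size factors moved the median of all genes at 120 hpi from −0.36 to −0.20 in wild-type, −0.31 to −0.18 in R35A and −0.28 to −0.14 in R35K cells. Replicate numbers had a median correlation of −0.01 over 153 pairs of groups (18 above 0.1), so they share only a number, and a replicate block gave 50 member calls, as did the fit without it, with another count in 0 of 50 comparisons. Over all genes, the difference in change between R35K and R35A had 521 calls at 3 hpi (322 by the Wald test) and 278 at 120 hpi (171, and 185 without R35K replicate 2 at 120 hpi).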
